A study of Mus musculus with 49 samples.

Results

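The 8 genes described here encode enzymes of cholesterol synthesis: Hmgcs1, Mvd, Idi1, Fdps, Fdft1, Sqle, Lss and Dhcr7. They were taken as a named list and looked up by Entrez ID, and no cutoff on their measured values was used. The list was chosen with earlier results of these data known. In both deposited tables, which hold 24475 genes each, 8 of 8 were found. All 8 passed the filter on low counts in skin and in colon. The study sequenced mRNA from skin and colon of mice labelled as a model of DITRA, the human disease in which the antagonist of the IL-36 receptor is deficient, and asked what blocking that receptor does to inflamed skin and intestine. All mice, water controls included, carried the model and the mixed C57BL/6NTac and 129S6/SvEvTac background. In skin, 7 libraries came from mice given imiquimod (IMQ, a compound that inflames skin) and an antibody to human IL-36R, 7 from mice given IMQ and an antibody to mouse IL-12p40, 6 from mice given IMQ and phosphate-buffered saline (PBS), and 3 from mice given water and PBS. In colon, 8 libraries came from mice given dextran sulfate sodium (DSS, which injures the colonic epithelium) and anti-IL-36R, 7 from DSS and anti-IL-12p40, 6 from DSS and PBS, and 5 from water and PBS. The alleles behind the model, the age and sex of the mice and the dosing times are not given in the sources used here. Nor do they say that the libraries of a group came from separate animals, so p-values measure the spread between these libraries, which may be technical.

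Cholesterol is built from acetyl-CoA. HMG-CoA synthase (Hmgcs1) supplies the early mevalonate branch, mevalonate diphosphate decarboxylase (Mvd) and isopentenyl diphosphate isomerase (Idi1) make and interconvert the activated isoprene units, and farnesyl diphosphate synthase (Fdps) joins these. Squalene synthase (Fdft1) draws farnesyl diphosphate into sterols, squalene epoxidase (Sqle) and lanosterol synthase (Lss) make the ring, and 7-dehydrocholesterol reductase (Dhcr7) reduces 7-dehydrocholesterol to cholesterol at the end of the pathway. The genes are known targets of SREBP-2, a transcription factor released when cell sterols run low. Cholesterol is a main lipid of the epidermal barrier.

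The start regions of 3 members are printed because their levels followed different courses in skin: Mvd was higher under IMQ, Hmgcs1 was not called in any comparison within skin, and Dhcr7 was higher with either antibody than with PBS under IMQ. RefSeq start windows of build GRCm38.p6, from 250 bases before to 50 bases after an annotated start, were at hand for 5 of the 8 members (7 windows, 3 of them of Dhcr7). Each is written 5′ to 3′ on the strand of its gene, and capitals mark CCAAT (the letters known to bind NF-Y) and GGGCGG (those of an Sp1 site), on both strands, and TCACNCCAC, a form of the sterol regulatory element, likewise on both strands; no capitals overlap between motifs.
Mvd, chr8:122443373-122443672, minus strand: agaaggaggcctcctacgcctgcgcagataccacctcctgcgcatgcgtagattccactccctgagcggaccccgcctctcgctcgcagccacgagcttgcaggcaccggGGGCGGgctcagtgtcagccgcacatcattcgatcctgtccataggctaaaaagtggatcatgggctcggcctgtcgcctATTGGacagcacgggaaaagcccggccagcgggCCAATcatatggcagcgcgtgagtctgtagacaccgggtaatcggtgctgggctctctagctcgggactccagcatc
Hmgcs1, chr13:119690101-119690400, plus strand: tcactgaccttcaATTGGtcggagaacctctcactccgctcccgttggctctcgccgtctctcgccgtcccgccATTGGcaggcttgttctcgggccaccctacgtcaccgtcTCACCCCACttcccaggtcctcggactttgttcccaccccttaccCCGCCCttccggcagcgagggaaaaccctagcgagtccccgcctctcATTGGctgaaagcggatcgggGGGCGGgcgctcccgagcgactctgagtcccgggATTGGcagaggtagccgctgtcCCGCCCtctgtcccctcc
Dhcr7, chr7:143829964-143830263, plus strand: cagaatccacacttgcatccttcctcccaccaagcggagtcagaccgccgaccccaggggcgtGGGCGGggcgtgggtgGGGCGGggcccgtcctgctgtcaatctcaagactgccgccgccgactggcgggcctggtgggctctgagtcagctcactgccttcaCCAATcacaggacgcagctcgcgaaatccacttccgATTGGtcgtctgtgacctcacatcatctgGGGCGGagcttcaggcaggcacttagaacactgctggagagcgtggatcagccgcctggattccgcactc
TCACNCCAC stood in 1 of the 7 windows, that of Hmgcs1 (TCACCCCAC on the plus strand), and in 1.24% of 32851 mouse windows of the same length. CCAAT was found in 5 of the 7 windows and in 37.4% of all windows, and GGGCGG in 6 of 7 and in 35.7%. The Dhcr7 window printed is the 1 of the 3 with the most matches, and it lies inside the gene's span (chr7:143823167-143848410). The other 2 Dhcr7 windows, at chr7:143822917-143823216 and chr7:143823149-143823448, overlap each other and were counted separately. They held no CCAAT, and GGGCGG stood only in the first of them. These are matches of letters in a window, not measured binding.

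Library totals ran between 14723200 and 19678074 estimated counts in skin and between 15081670 and 18663357 in colon. Levels are given below as counts-per-million (CPM) on library sizes scaled by TMM, and fold changes come from edgeR's quasi-likelihood test with Benjamini-Hochberg adjustment over all genes tested (15345 in skin, 15731 in colon), called at an adjusted p under 0.05. The tissue labels were checked against markers: the summed CPM of 8 colonocyte genes had group medians between 2.29 and 3.17 in skin, with Aqp8 at 0 in 3 of the 4 skin groups, and that of 6 suprabasal keratinocyte genes between 3.44 and 17.8 in colon libraries. DSS PBS replicate 6 stood apart: it was the lowest of its group in 8 of 8 members, its summed colonocyte markers were 560 CPM where the group's highest was 3557, and its summed basal keratinocyte markers were 3081 CPM where the group's median was 544. For the colon comparisons with DSS PBS, values without it are given beside the others. Estimated counts of Idi1 were not whole in any library, so reads that also match other loci were shared out by the authors' counting and its level is uncertain; those of Lss were not whole in 3 libraries of each tissue. In whole tissue, fewer cells of a type and less RNA per cell cannot be told apart. Statements below on whether libraries of 2 groups overlap describe the members only, and the share over all genes was not counted.

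In skin, IMQ with PBS raised 4 of the 8 members over water with PBS: Mvd, Fdps, Fdft1 and Sqle. Their fitted levels were 1.43 to 1.49 times those of water controls. Hmgcs1, Idi1, Lss and Dhcr7 were not called. None of the 8 fell. Of all genes tested, 33.0% were called in this comparison and 15.5% were higher; of the members, 4 of 8 were called, all as higher. The members' median log2 fold change was 0.43, beside −0.03 over all genes tested.

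**Figure D1:**
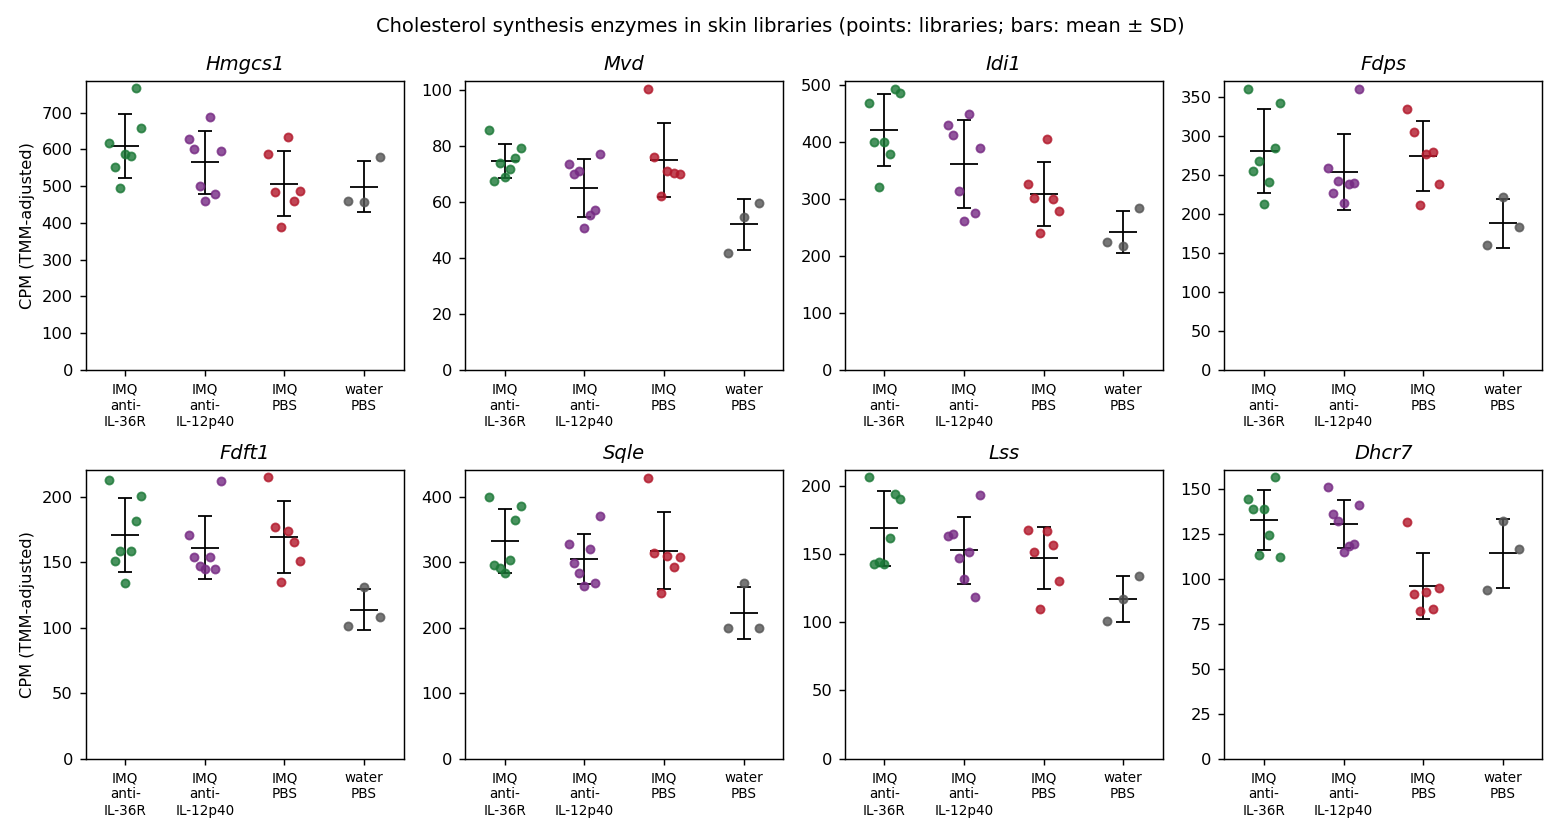
Levels of the 8 enzymes in 23 skin libraries, in TMM-scaled CPM on axes that start at 0, by group from left to right: IMQ with anti-IL-36R, IMQ with anti-IL-12p40, IMQ with PBS, and water with PBS. Points are libraries, and the bars give the mean and SD. For Fdft1 the 3 water libraries lie below every IMQ library. For Mvd they lie below every library of IMQ with anti-IL-36R and of IMQ with PBS but overlap IMQ with anti-IL-12p40, and the Dhcr7 mean is lowest under IMQ with PBS (95.9 CPM).

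Among the mevalonate steps, Hmgcs1 (Entrez 208715, chr13:119690351-119708260) spanned 388, 486 and 633 CPM (lowest, median, highest) in the 6 IMQ PBS libraries, against 458, 458 and 579.7 CPM in the 3 water libraries. The groups overlapped fully and the log2 fold change was 0.02 ± 0.152 (SE; adjusted p = 0.921). Mvd (192156, chr8:122433596-122443422) spanned 62.2, 70.9 and 100.4 CPM under IMQ PBS, against 41.9, 54.6 and 59.6 CPM in water controls. Every IMQ PBS library was above every water library. Mean levels were 75.1 ± 13.2 CPM with IMQ PBS (SD, n = 6) and 52.0 ± 9.10 CPM with water (n = 3), and the fold was 1.44 (95% interval 1.17 to 1.78; adjusted p = 0.00924). Idi1 (319554, chr13:8885606-8892396) spanned 240.4, 301 and 406 CPM under IMQ PBS, against 218, 225 and 285 CPM in water controls. Of the 6 IMQ PBS libraries, 4 were above all water libraries, and the log2 fold change of 0.35 ± 0.18 was not called (adjusted p = 0.134).

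Fdps (110196, chr3:89093588-89101967), which makes farnesyl diphosphate, spanned 211, 278 and 334 CPM under IMQ PBS, against 159, 183 and 222 CPM in water controls. The groups met at 1 library, with 5 of 6 IMQ PBS libraries above all water libraries, and the fold was 1.46 (1.13 to 1.88; adjusted p = 0.0224). Fdft1 (14137, chr14:63145150-63181687), the squalene synthase, spanned 135, 169.6 and 215 CPM under IMQ PBS, against 101, 108 and 131 CPM in water controls. The groups did not overlap, and mean levels were 169 ± 27.2 CPM with IMQ PBS (n = 6) and 114 ± 15.7 CPM with water (n = 3), a fold of 1.49 (1.2 to 1.86; adjusted p = 0.00751).

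Sqle (20775, chr15:59315092-59331193), the squalene epoxidase, spanned 253, 309 and 429 CPM under IMQ PBS, against 199.8, 200.1 and 268 CPM in water controls. Of 6 IMQ PBS libraries, 5 exceeded all water libraries, and the fold was 1.43 (1.15 to 1.78; adjusted p = 0.0137). Lss (16987, chr10:76531565-76557139), which closes the ring, spanned 109.8, 154 and 168 CPM under IMQ PBS, against 101, 117 and 134 CPM in water controls. Here 4 of 6 IMQ PBS libraries were above all water libraries, and the log2 fold change was 0.33 ± 0.158 (adjusted p = 0.111). Dhcr7 (13360, chr7:143823167-143848410) spanned 82.2, 91.9 and 132 CPM under IMQ PBS, against 93.8, 116 and 132 CPM in water controls. It alone had a negative estimate: 4 of 6 IMQ PBS libraries lay below all water libraries, and the log2 fold change of −0.25 ± 0.137 was not called (adjusted p = 0.159).

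These calls depend on the 3 water libraries. Without water replicate 1, 1 member was called: the log2 fold changes of Mvd (0.40, adjusted p = 0.074), Fdps (0.44, adjusted p = 0.115) and Sqle (0.44, adjusted p = 0.0714) kept their sign and missed the threshold. Without water replicate 3, 2 members were called, and Fdps (0.52, adjusted p = 0.0825) and Sqle (0.44, adjusted p = 0.0823) were not. Leaving out IMQ PBS replicate 3, the lowest of its group in all 8 members, brought Lss past the threshold at 0.40 (adjusted p = 0.0485). Leaving out IMQ PBS replicate 1, the highest of its group in 6 members, brought Dhcr7 past it as lower, at −0.34 (adjusted p = 0.0332). With only IMQ PBS replicates 4 to 6, Fdps was not called (0.50, adjusted p = 0.0661).

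Summed RNA levels of cell type markers differed between these skin groups as well. Sebaceous gland markers summed to between 714 and 1411 CPM over 12 genes under IMQ PBS, against between 2110 and 3506 CPM in water controls, and 10 of 12 fell. Neutrophil markers summed to between 8088 and 16696 CPM under IMQ PBS, against between 396 and 2681 CPM in water controls, and 6 of the 7 tested rose. Basal keratinocyte markers summed to between 22495 and 32327 CPM under IMQ PBS, against between 11545 and 17360 CPM in water controls, with 4 of 7 higher and 1 lower. Of 8 proliferation genes 3 rose, but their sums overlapped. These ran between 839 and 1168 CPM under IMQ PBS (median 984), against between 641 and 1199 CPM in water controls (median 1017). Fibroblast markers summed to between 4202 and 10393 CPM under IMQ PBS, against between 13590 and 23197 CPM in water controls. T cell markers summed to between 71.0 and 156 CPM, against between 169 and 230 CPM. Medians were 1192 against 468 CPM for macrophage markers and 16633 against 35914 CPM for suprabasal keratinocyte markers, in ranges that overlapped. The part of these shifts in the members' levels was not tested.

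With anti-IL-36R in place of PBS under IMQ, Dhcr7 was the 1 member of 8 called, and it was higher; 4.21% of all genes were called in this comparison and 3.29% were higher. Dhcr7 spanned 112, 139 and 157 CPM in the 7 anti-IL-36R libraries, against 82.2, 91.9 and 132 CPM in the 6 PBS libraries. In 4 of 7 anti-IL-36R libraries it was above every PBS library; the overlap came through PBS replicate 1, at 132 CPM. Mean levels were 133 ± 16.6 CPM with anti-IL-36R and 95.9 ± 18.3 CPM with PBS, a fold of 1.38 (1.18 to 1.62; adjusted p = 0.0175). The call was lost without PBS replicate 3 (log2 fold change 0.43, adjusted p = 0.0518), PBS replicate 5 (0.42, adjusted p = 0.0581) or anti-IL-36R replicate 6 (0.42, adjusted p = 0.0503).

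The members that IMQ raised had estimates near 0 with anti-IL-36R. Mvd, Fdft1, Fdps and Sqle had log2 fold changes of −0.01, 0.01, 0.03 and 0.06 against PBS, with 95% intervals that together ran from −0.25 to 0.31. Idi1 had the next largest estimate after Dhcr7. It spanned 321, 401 and 493 CPM with anti-IL-36R, against 240.4, 301 and 406 CPM with PBS, and 3 of 7 anti-IL-36R libraries were above all PBS libraries. Its log2 fold change of 0.45 ± 0.14 was not called (adjusted p = 0.0717). DESeq2 (0.44, adjusted p = 0.0385) and limma's voom (0.43, adjusted p = 0.0282) called it, as did edgeR without anti-IL-36R replicate 3 (0.50, adjusted p = 0.0371) or PBS replicate 4 (0.54, adjusted p = 0.0351). Both DESeq2 and voom called more genes than edgeR in this comparison. Hmgcs1 spanned 495, 588 and 767 CPM with anti-IL-36R, against 388, 486 and 633 CPM with PBS, and was not called (0.26 ± 0.12, adjusted p = 0.206). Lss was at 0.20 ± 0.123 (adjusted p = 0.369).

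With anti-IL-12p40 in place of PBS under IMQ, Dhcr7 was again the 1 member of 8 called, where 8.80% of all genes were called and 5.32% were higher. It spanned 115, 132 and 151 CPM with anti-IL-12p40, against the same 82.2, 91.9 and 132 CPM with PBS. In 4 of 7 anti-IL-12p40 libraries it was above every PBS library, the fold was 1.36 (1.16 to 1.59; adjusted p = 0.0149), and the call held with each library left out in turn. Mvd had the lowest estimate: it spanned 50.6, 70.1 and 77.3 CPM with anti-IL-12p40, against 62.2, 70.9 and 100.4 CPM with PBS, at −0.21 ± 0.112 (adjusted p = 0.254). The remaining 6 members lay between −0.11 (Fdps) and 0.23 (Idi1) and were not called. The comparisons of each antibody with PBS share the 6 IMQ PBS libraries, so the Dhcr7 values of both rest on the same low PBS levels, and with only PBS replicates 1 to 3 neither call held (log2 fold change 0.37, adjusted p = 0.173, for anti-IL-36R and 0.34, adjusted p = 0.17, for anti-IL-12p40). With only PBS replicates 4 to 6 both did (0.56, adjusted p = 0.0475, and 0.53, adjusted p = 0.0359). The sample numbers of these subsets are described above.

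Set against each other, the antibodies gave log2 fold changes of anti-IL-36R over anti-IL-12p40 between 0.02 (Dhcr7) and 0.22 (Idi1) in skin. None of the 8 members was called, where 0.0456% of all genes were, and 0 had an unadjusted p under 0.05, where 814 of 15345 genes had. Neither DESeq2 nor voom called a member here. The 95% interval for Dhcr7 ran from −0.19 to 0.24, and that for Idi1 from −0.06 to 0.50, so differences of those sizes could not be told from none.

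**Figure D2:**
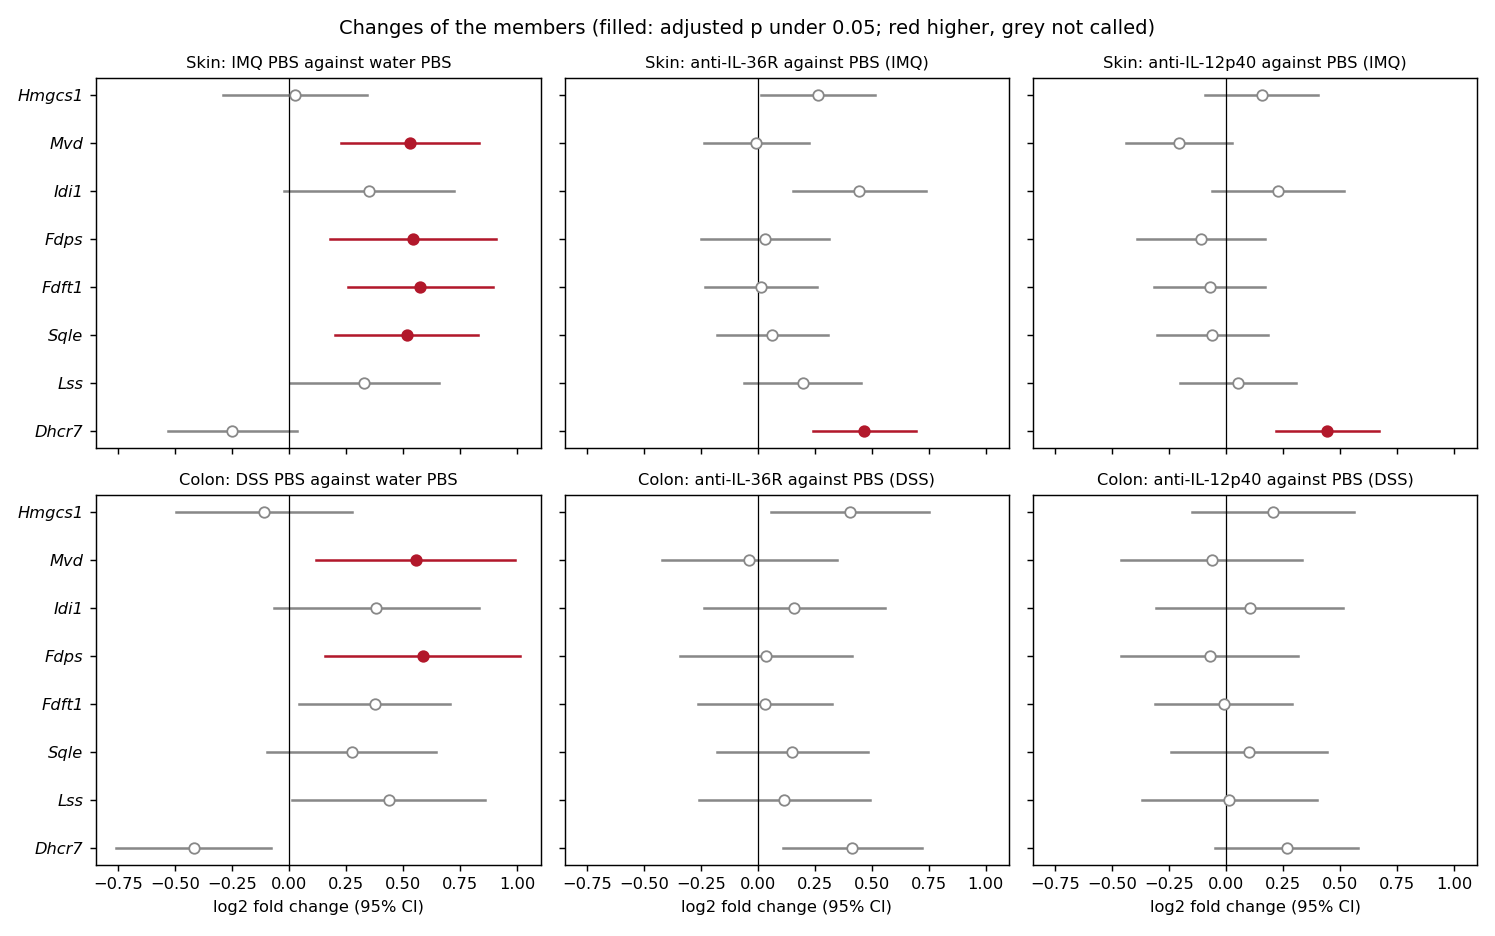
Log2 fold changes of the 8 enzymes with 95% intervals, for anti-IL-36R against PBS, anti-IL-12p40 against PBS and the inflamed tissue with PBS against water, in skin (IMQ) and colon (DSS). Filled points passed an adjusted p of 0.05, with red for higher and grey for not called. In skin, Mvd, Fdps, Fdft1 and Sqle are filled for IMQ against water and Dhcr7 for each antibody, and in colon Mvd and Fdps are filled for DSS against water.

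Set directly against water controls, skin of mice given IMQ and anti-IL-36R had 6 of 8 members called, all higher, where 13.1% of all genes were called and 5.97% were higher. Idi1, at 321, 401 and 493 CPM against 218, 225 and 285 CPM in water controls, had the largest estimate, a fold of 1.74 (1.34 to 2.25; adjusted p = 0.00737), and its groups did not overlap. Groups likewise did not overlap for Fdft1 (fold 1.50, adjusted p = 0.0139), Sqle (1.49, adjusted p = 0.0147), Lss (1.44, adjusted p = 0.0301) and Mvd (1.44, adjusted p = 0.0197). How many of all genes had no overlap here was not counted. Fdps was at 1.49 (adjusted p = 0.0315), with 6 of 7 libraries above all water libraries. Hmgcs1 and Dhcr7 were not called, at log2 fold changes of 0.29 and 0.22. Without water replicate 1 a single member was called, and without water replicate 3 there were 3. Fdps and Lss were also lost without anti-IL-36R replicate 1 (0.51 and 0.47) or 7 (0.52 and 0.50), and Lss without water replicate 2 (0.54, adjusted p = 0.0649). Both were also lost by voom (adjusted p = 0.058 for Fdps and 0.059 for Lss) and with only the 2 groups in the fit (0.0707 and 0.0582).

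Skin of mice given IMQ and anti-IL-12p40 had 0 of 8 members called against the same water controls, where 4.80% of all genes were called. At an unadjusted p under 0.05 there were 6, where 3550 of 15345 genes were. DESeq2 called 3 members and voom 1, and DESeq2 also called more genes than edgeR here. Fdft1 came nearest: it spanned 145, 154 and 212 CPM with anti-IL-12p40, against 101, 108 and 131 CPM in water controls, and did not overlap, at a log2 fold change of 0.50 ± 0.15 (adjusted p = 0.0533). Idi1 was at 0.58 (adjusted p = 0.0613), Sqle at 0.45 (adjusted p = 0.0745), Fdps at 0.43, Lss at 0.38 and Mvd at 0.32. A member was called when anti-IL-12p40 replicate 4 (Idi1, 0.64) or 6 (Idi1, 0.63), anti-IL-12p40 replicate 2 (Fdft1, 0.52) or water replicate 2 (Sqle, 0.62) was left out. These estimates share the water libraries with those of the other IMQ groups, and the direct test of the antibodies against each other, above, called no member.

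By mean level, the order of the skin groups put water lowest for 7 members and IMQ with PBS lowest for Dhcr7. Of the 24 steps between neighbours in these orders (3 for each member), 6 were larger than the larger SD of the neighbours, all of them the step down to water, in Mvd, Idi1, Fdps, Fdft1, Sqle and Lss. The other 18 steps, those between IMQ groups among them, lay within the SD.

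Among the 11 other enzymes of the pathway reported here, IMQ with PBS raised 4 over water, so that 8 of 19 enzymes rose with the members counted. Sc5d, which acts late by introducing the C5 double bond, rose by 0.84 ± 0.160 (log2, adjusted p = 0.000842). Hsd17b7, a ketoreductase of the C4 demethylation steps, rose by 0.90 ± 0.206 (adjusted p = 0.0028). Cyp51, the lanosterol demethylase, rose by 0.41 ± 0.134 (adjusted p = 0.0234). Nsdhl, a dehydrogenase of the same C4 demethylation steps, rose by 0.42 ± 0.145 (adjusted p = 0.0302). The other 7 were not called.

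Of the same 11 enzymes, Msmo1, a C4 methyl oxidase, was called as higher with anti-IL-36R than with PBS (0.40 ± 0.115, adjusted p = 0.0495). In all, 2 of 19 enzymes rose with anti-IL-36R, Dhcr7 and Msmo1, and 1 of 19 with anti-IL-12p40, Dhcr7. Sebaceous gland markers moved the same way as Dhcr7 in these comparisons: they summed to between 1501 and 3824 CPM with anti-IL-36R and between 1663 and 3571 CPM with anti-IL-12p40, against between 714 and 1411 CPM with PBS, and 9 of 12 rose with each antibody. Neutrophil markers summed to between 3217 and 12628 CPM with anti-IL-36R and between 1017 and 5269 CPM with anti-IL-12p40, against between 8088 and 16696 CPM with PBS. Of the 7 tested by edgeR, 0 were called with anti-IL-36R, where 3 had an unadjusted p under 0.05, and 3 fell with anti-IL-12p40. Suprabasal keratinocyte markers summed to a median of 30988 CPM with anti-IL-36R and 33316 CPM with anti-IL-12p40, against 16633 CPM with PBS, in ranges that overlapped, with 0 of 6 called with anti-IL-36R (1 at an unadjusted p under 0.05) and 1 of 6 called as higher with anti-IL-12p40. Basal keratinocyte markers had medians of 19320 and 21725 CPM with these antibodies, against 26480 CPM with PBS, and 1 of 7 rose with each. The part of these shifts in the result was not tested.

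**Figure D3:**
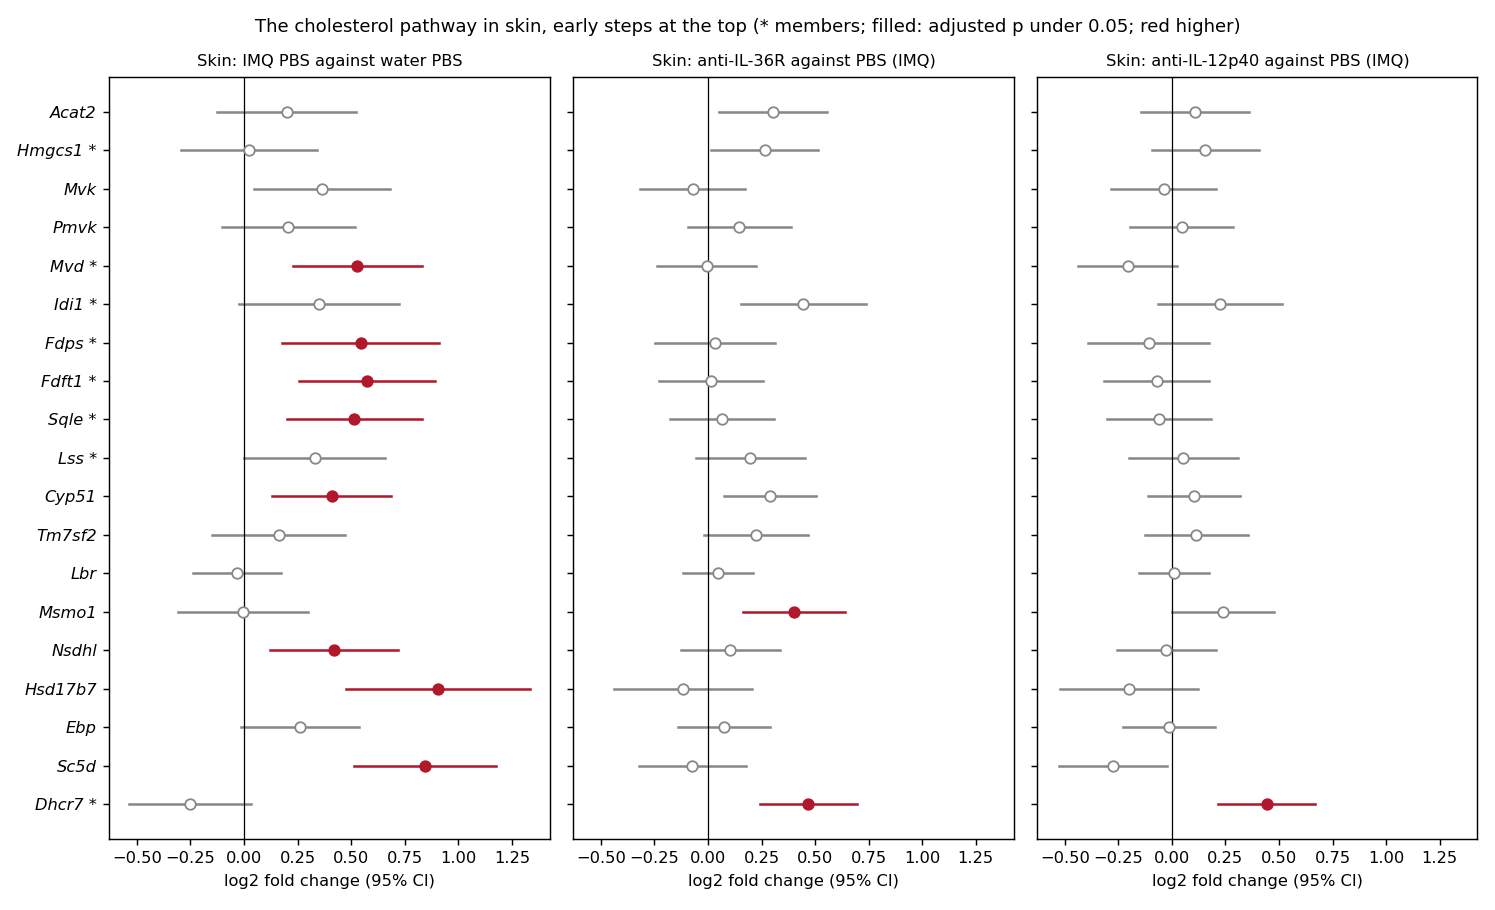
Log2 fold changes of 19 cholesterol synthesis enzymes in pathway order in skin, from left to right for IMQ PBS against water, anti-IL-36R against PBS and anti-IL-12p40 against PBS, with 95% intervals. Red marks genes called higher and grey genes not called, and asterisks mark the 8 members. For IMQ against water 8 genes are red, with Hsd17b7 farthest out at 0.90, and with the antibodies the red genes are Dhcr7 in both and Msmo1 with anti-IL-36R.

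Of 7 genes that regulate SREBP, none rose and 2 fell under IMQ PBS against water. Insig2, which holds SREBP in the endoplasmic reticulum when sterols are plentiful, averaged 38.6 ± 5.24 CPM with IMQ PBS (n = 6) and 80.6 ± 20.3 CPM with water (n = 3), a log2 fold change of −1.06 ± 0.173 (adjusted p = 0.000311). Mbtps1, a protease that cleaves SREBP, fell by 0.25 (adjusted p = 0.00296). Insig2 averaged 65.3 ± 14.2 CPM with anti-IL-36R and 64.3 ± 9.06 CPM with anti-IL-12p40, against 38.6 ± 5.24 CPM with PBS, and was called as higher with both (0.76, adjusted p = 0.00468, and 0.74, adjusted p = 0.00412). The transcription factor genes themselves, Srebf2 (0.25, adjusted p = 0.0844) and Srebf1 (−0.21, adjusted p = 0.0503), and Insig1 (−0.14) were not called under IMQ PBS.

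Among 9 genes of sterol uptake and trafficking reported here, Npc2, a lysosomal sterol carrier (0.38, adjusted p = 0.00734), rose under IMQ PBS and 8 were not called. Among 11 tested genes of sterol efflux, storage and oxysterols, 3 rose and 3 fell. Cyp7b1 (1.98) and Ch25h (1.80), hydroxylases that act on oxysterols or make them, and the exporter Abcg1 (0.69) rose, and the esterifying enzyme Soat1 fell by 1.74 ± 0.366 (adjusted p = 0.00162). Soat1 was higher with anti-IL-36R (1.52) and anti-IL-12p40 (1.47) than with PBS. Of 12 genes of fatty acid synthesis, the desaturase Scd1 (−2.15) and the elongases Elovl6 (−2.33) and Elovl5 (−1.65) fell under IMQ PBS while Scd2 rose (1.05). Scd1, Elovl6 and Elovl5 were called as higher with either antibody than with PBS, at log2 fold changes of 1.08 to 1.69. Of 3 tested enzymes of cholesterol sulfate formation, which matters for shedding of the horny layer, the sulfotransferase Sult2b1 (0.65, adjusted p = 0.021) and Papss2 (1.11, adjusted p = 0.00151), which makes the sulfate donor, rose under IMQ PBS.

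In colon, DSS with PBS raised 2 of the 8 members over water with PBS, Mvd and Fdps, where 32.2% of all genes were called and 17.6% were higher. The members' median log2 fold change was 0.38, beside −0.03 over all genes tested. Mvd spanned 21.3, 35.4 and 56.9 CPM in the 6 DSS PBS libraries, against 27.5, 26.3, 23.3, 19.4 and 31.8 CPM in the 5 water libraries. Of the DSS PBS libraries, 4 were above all water libraries, and the fold was 1.47 (1.09 to 1.99; adjusted p = 0.0468). Fdps spanned 83.6, 107 and 144 CPM under DSS PBS, against 84.9, 65.3, 61.7, 68.1 and 81.6 CPM in water controls. Again 4 of 6 were above all water libraries, and the fold was 1.50 (1.12 to 2.02; adjusted p = 0.0328).

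The other members were not called. Dhcr7 spanned 48.4, 97.1 and 110.0 CPM under DSS PBS, against 131, 116, 125, 90.8 and 120.2 CPM in water controls, and 3 of 6 DSS PBS libraries lay below all water libraries (log2 fold change −0.42 ± 0.164, adjusted p = 0.0521). Fdft1 spanned 78.8, 109 and 158 CPM under DSS PBS, against 92.7, 94.0, 86.2, 66.7 and 83.3 CPM in water controls (0.37 ± 0.16, adjusted p = 0.0754). Lss was at 0.44 (adjusted p = 0.107), Idi1 at 0.38, Sqle at 0.27 and Hmgcs1 at −0.11.

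These colon calls turned on single libraries, with 0 to 3 members called in either direction when 1 library was left out. Both Mvd and Fdps were lost without water replicate 2, 3 or 4 or DSS PBS replicate 2 or 3, Mvd alone without water replicate 1 or DSS PBS replicate 4, and Fdps alone without DSS PBS replicate 1. Across the libraries whose absence ended a call, Mvd stood at 0.40 to 0.58 and Fdps at 0.49 to 0.56, DSS PBS replicate 4 for Mvd (adjusted p = 0.0506) and DSS PBS replicate 1 for Fdps (adjusted p = 0.0505) among them. Without DSS PBS replicate 6, Mvd (0.68, adjusted p = 0.0126), Fdps (0.66, adjusted p = 0.0247) and Fdft1 (0.46, adjusted p = 0.0313) were called, and Dhcr7 was at −0.29 (adjusted p = 0.135). Lss was then at 0.54 (adjusted p = 0.0525), Idi1 at 0.50, Sqle at 0.39 and Hmgcs1 at 0.01, none of them called. Without DSS PBS replicate 5, Fdft1 was called (0.45, adjusted p = 0.0386) and Dhcr7 was at −0.33 (adjusted p = 0.141). Dhcr7 was called as lower without water replicate 4 or DSS PBS replicate 1, 3 or 4, at −0.48 to −0.50. Summed RNA levels of cell type markers differed here too. Colonocyte markers summed to between 560 and 3557 CPM over 8 genes under DSS PBS, against between 3478 and 7033 CPM in water controls, and 3 of 8 fell. Neutrophil markers summed to between 217 and 3340 CPM under DSS PBS, against between 5.37 and 83.3 CPM in water controls, and 7 of 8 rose. Fibroblast markers summed to between 3997 and 13879 CPM, against between 1706 and 2876 CPM. Macrophage (374 to 1064 against 142 to 290 CPM) and T cell sums (80.4 to 215 against 29.0 to 48.2 CPM) were also higher. So were B and plasma cell sums (1189 to 6121 against 113 to 678 CPM), while goblet cell and general epithelial sums overlapped water. The part of these shifts in the members' values was not tested.

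**Figure D4:**
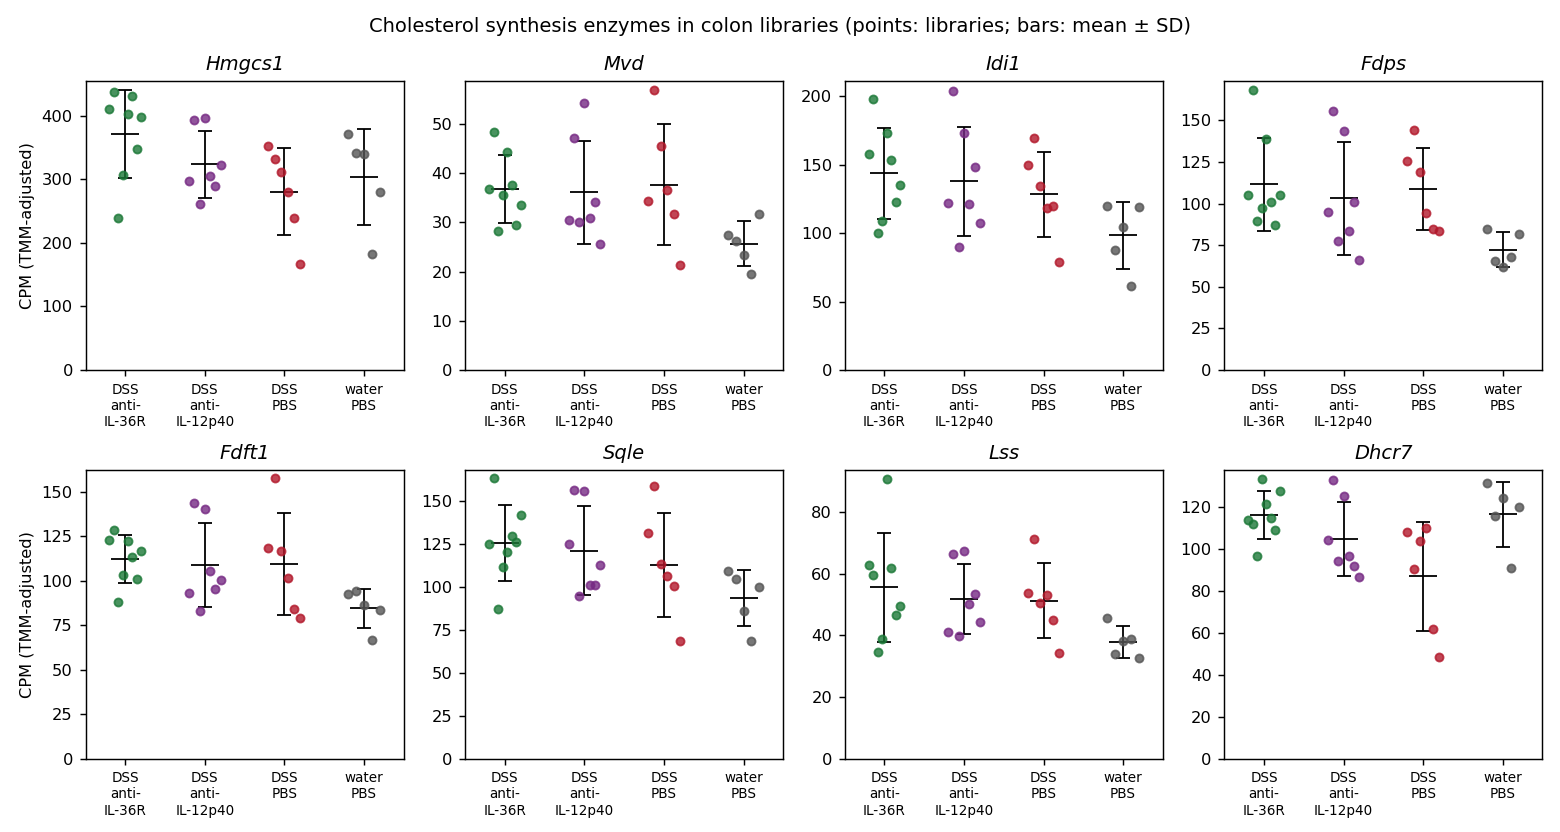
Levels of the 8 enzymes in 26 colon libraries, in TMM-scaled CPM on axes that start at 0, by group from left to right: DSS with anti-IL-36R, DSS with anti-IL-12p40, DSS with PBS, and water with PBS. Points are libraries, and the bars give the mean and SD. Every DSS group overlaps water except Fdps with anti-IL-36R, which lies above all water libraries, and DSS PBS spans 48.4 to 110.0 CPM for Dhcr7.

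Neither antibody moved a member past the threshold in colon. With anti-IL-36R in place of PBS under DSS, 0 of 8 members were called, where 6.60% of all genes were. DESeq2 and voom called no member either. At an unadjusted p under 0.05 there were 2 members, where 3656 of 15731 genes were. Dhcr7, the nearest, spanned 96.5, 114 and 134 CPM in the 8 anti-IL-36R libraries, against 48.4, 97.1 and 110.0 CPM in the 6 PBS libraries. In 6 of 8 anti-IL-36R libraries it was above every PBS library, at a log2 fold change of 0.42 ± 0.148 (adjusted p = 0.0918). It was called without DSS PBS replicate 1 (0.47, adjusted p = 0.0437) or 4 (0.48, adjusted p = 0.0488), and stood at 0.27 (adjusted p = 0.324) without replicate 6. Hmgcs1 spanned 239, 399.9 and 438 CPM with anti-IL-36R, against 167, 296 and 352 CPM with PBS, at 0.41 ± 0.169 (adjusted p = 0.147), and at 0.27 (adjusted p = 0.458) without PBS replicate 6. The other 6 lay between −0.04 and 0.16, and between −0.18 (Mvd) and 0.03 (Idi1) without that library. With anti-IL-12p40 in place of PBS, 0 of 8 were called, where 1.15% of all genes were. None was at an unadjusted p under 0.05 (where 1897 of 15731 genes were), and none was called by DESeq2 or voom. The estimates lay between −0.07 (Fdps) and 0.27 (Dhcr7, 95% interval −0.05 to 0.58). Without PBS replicate 6 they lay between −0.19 (Mvd) and 0.13 (Dhcr7), with Hmgcs1 at 0.08 in place of 0.21. Neutrophil markers summed to medians of 152 CPM with anti-IL-36R and 168 CPM with anti-IL-12p40, against 1632 CPM with PBS. Colonocyte markers had medians of 3504 and 3171 CPM with these antibodies, against 2710 CPM with PBS. Ranges overlapped in both lists, and the part of these shifts in the members' values was not tested.

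Between the antibodies in colon, log2 fold changes of anti-IL-36R over anti-IL-12p40 lay between 0.03 (Mvd) and 0.20 (Hmgcs1). No member and no gene was called (0 of 15731 genes by edgeR's quasi-likelihood test, with 552 at an unadjusted p under 0.05; DESeq2 called 6 genes and voom 0), and no member had an unadjusted p under 0.05.

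Against water controls, DSS with anti-IL-36R had 1 of 8 members called, where 9.92% of all genes were called and 6.92% were higher. Fdps spanned 87.2, 103 and 168 CPM with anti-IL-36R, against 84.9, 65.3, 61.7, 68.1 and 81.6 CPM in water controls. All 8 libraries were above all water libraries, and the fold was 1.54 (1.16 to 2.04; adjusted p = 0.0444). The call was lost without any 1 of the 5 water libraries or without anti-IL-36R replicate 1, 2, 5, 6 or 8, at log2 fold changes of 0.52 to 0.69 and adjusted p between 0.0504 and 0.11. Lss (0.55), Idi1 (0.54), Mvd (0.52), Sqle (0.42) and Fdft1 (0.41) had an unadjusted p under 0.05 and an adjusted p of 0.0741 or more. Of all 15731 genes, 3847 had an unadjusted p under 0.05. Voom called 5 members in all, but it also called more genes than edgeR here, as counted in the last section. Lss was called without anti-IL-36R replicate 3 (0.63, adjusted p = 0.0406) or 4 (0.61, adjusted p = 0.048). Dhcr7 was at −0.01. DSS with anti-IL-12p40 had 0 of 8 called against the same water controls, where 17.2% of all genes were. At an unadjusted p under 0.05 there were 6 members, where 4898 of 15731 genes were. DESeq2 called no member and voom 3, and voom again called more genes than edgeR. Fdps was at 0.51 ± 0.202 (adjusted p = 0.0804), and without anti-IL-12p40 replicate 7 it was called at 0.60 (adjusted p = 0.0446).

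Mean levels in colon put water lowest for 6 members, and DSS with PBS lowest for Hmgcs1 and Dhcr7. For Hmgcs1 that place rests on DSS PBS replicate 6 (167 CPM), without which its log2 fold change from water was 0.01. Of 24 steps between neighbouring groups, 2 exceeded the larger SD, the steps down to water in Fdft1 and Lss. Of the 11 other enzymes, Lbr, a sterol C14 reductase of the nuclear envelope, rose under DSS PBS (0.45 ± 0.134, adjusted p = 0.0131), so that 3 of 19 enzymes rose and none of the 19 fell. Cyp51 was higher with DSS and anti-IL-36R (0.55, adjusted p = 0.0246) and with DSS and anti-IL-12p40 (0.48, adjusted p = 0.0383) than with water. Of 7 SREBP regulators 0 were called under DSS PBS. Of 13 genes of sterol efflux, storage and oxysterols, 6 rose under DSS PBS and 1 fell, where 32.2% of all genes were called, with Cyp7b1 at 3.23 ± 0.501, the lipoprotein gene Apoe at 1.82 ± 0.339, the exporter Abca1 at 1.65 ± 0.316 and the esterifying enzyme Soat2 at 1.57 ± 0.286. With anti-IL-36R in place of PBS, Cyp7b1 (−1.54), Soat2 (−1.13) and Abcg1 (−0.79) fell.

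The difference between the tissues' responses was tested directly in a fit over both tables (16818 genes). The effect of disease, IMQ PBS over water in skin minus DSS PBS over water in colon, differed for 0 of 8 members, where 22.3% of all genes were called. No member had an unadjusted p under 0.05, where 5936 of 16818 genes had, and neither DESeq2 nor voom called 1. The differences lay between −0.06 (Lss) and 0.28 (Sqle, 95% interval −0.22 to 0.79), so a difference of that width could not be seen. The effect of anti-IL-36R differed for 0 of 8 members, where 5.14% of all genes were called, and that of anti-IL-12p40 for 0 of 8, where 1.87% were. No member had an unadjusted p under 0.05 in either, where 3327 and 2407 of 16818 genes had. Of the 11 other enzymes, the effect of disease differed for 2: Sc5d (0.94, adjusted p = 0.000423) and Hsd17b7 (0.87, adjusted p = 0.0154) were higher in the skin contrast than in the colon contrast. Insig2 differed in all 3 contrasts, at −0.97, 0.75 and 0.83 for disease, anti-IL-36R and anti-IL-12p40. Tissue, inflaming agent and table cannot be told apart in these tests.

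The level in uninflamed tissue was compared between skin and colon. The CPM values, and the overlaps read from them, were scaled within each tissue's table. The folds come from the fit over both tables, so CPM and folds are not on 1 scale. In water controls, 7 of 8 members were higher in skin than in colon, where 66.0% of all genes were called and 32.7% were higher. Lss was at 101, 117 and 134 CPM in the 3 skin libraries, against 45.7, 34.1, 38.3, 39.0 and 32.6 CPM in the 5 colon libraries, a fold of 3.38 (2.52 to 4.55; adjusted p = 1.05e-09). Fdps (fold 2.85), Idi1 (2.69), Sqle (2.60), Mvd (2.22) and Hmgcs1 (1.80) followed, and in none of these did the tissues overlap. How many of all genes had no overlap between the tissues was not counted. Fdft1 was higher by 1.47 times (adjusted p = 0.00626), but not without skin water replicate 2 (log2 fold change 0.43, adjusted p = 0.0686). Dhcr7, at 93.8, 132 and 116 CPM in skin and 131, 116, 125, 90.8 and 120.2 CPM in colon, was not called (0.10, 95% interval −0.27 to 0.47). In all, 15 of 19 enzymes were higher in skin, 3 were not called, and Tm7sf2, a sterol C14 reductase, was lower (−0.46 ± 0.202, adjusted p = 0.0412; named after its value was seen). Tissue and table cannot be told apart here.

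The members varied together from library to library, and this is given as a description, since the libraries of a tissue share a table and each member is scaled by the same library sizes. Over the 28 pairs of members, Pearson's r of log2 CPM ran from 0.24 to 0.97 (median 0.66) across 23 skin libraries, and from 0.39 to 0.96 (median 0.69) once group means were taken off. The closest pair in skin was Fdps and Fdft1, at 0.97 (0.96 with group means off), followed by Fdft1 and Sqle at 0.96 (0.94). Hmgcs1 and Idi1 also ran together, at 0.89 (0.94), whereas Fdps and Hmgcs1 were at 0.42 (0.40). Dhcr7 had the lowest median r with the other members in skin, at 0.40, where Hmgcs1 was next at 0.57. With group means off Dhcr7 was at 0.49, close to Idi1 and Hmgcs1 (0.51 each). In 26 colon libraries r ran from 0.26 to 0.90 (median 0.78), and from 0.50 to 0.88 (median 0.75) with group means off. Dhcr7 had a median of 0.42 in colon, where Hmgcs1 was next at 0.74. With group means off Dhcr7 was at 0.69 in colon, close to Lss at 0.71.

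**Figure D5:**
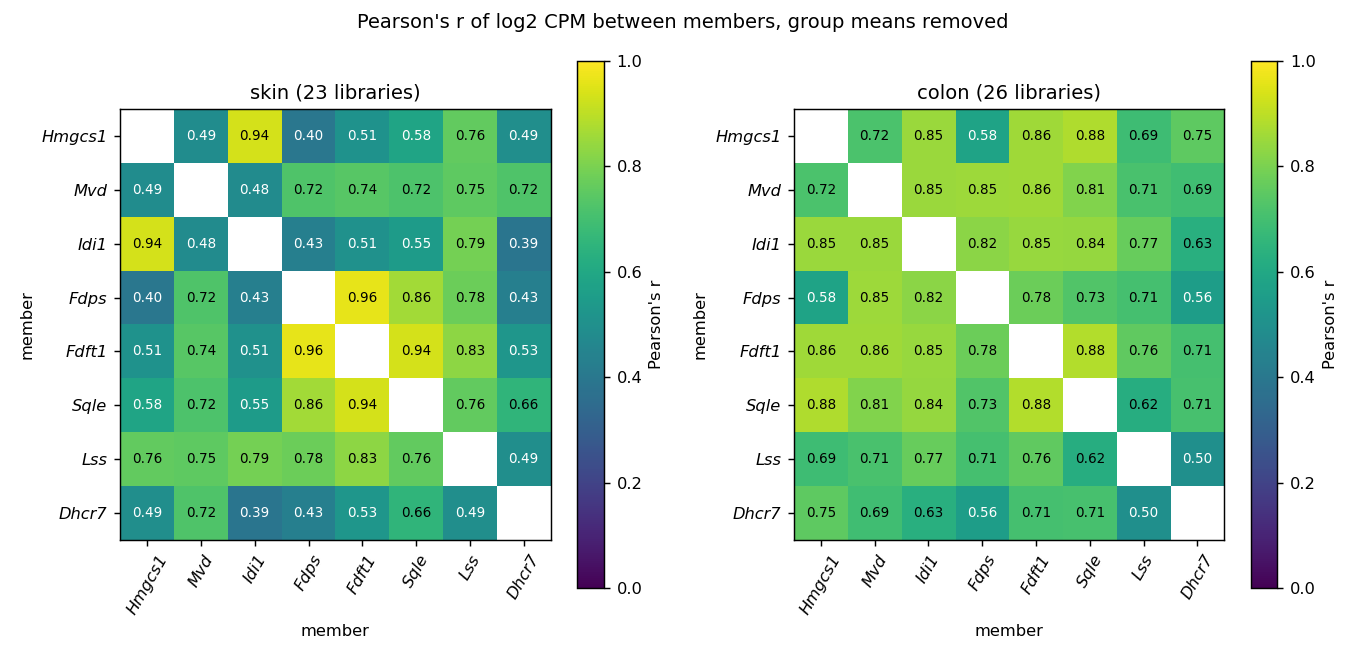
Pearson's r of log2 CPM between each pair of the 8 enzymes after group means were taken off, across 23 skin libraries (left) and 26 colon libraries (right). The colour runs from dark at 0 to yellow at 1. In skin, Fdps, Fdft1 and Sqle are close to each other, with r of 0.96 for Fdps and Fdft1, and Hmgcs1 and Idi1 are at 0.94.

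The same libraries tended to be high or low in many members. IMQ PBS replicate 3 was the lowest of its group in 8 of 8 members and replicate 1 the highest in 6. IMQ anti-IL-36R replicate 1 and IMQ anti-IL-12p40 replicate 7 were each the highest of their group in the same 5, Mvd, Fdps, Fdft1, Sqle and Lss. In colon, DSS anti-IL-36R replicate 3 was the lowest of its group in 7 members and DSS PBS replicate 6 in 8. The mean of the 8 members, each centred and scaled to unit SD across the tissue, ran from −0.08 to 1.35 with anti-IL-36R (median 0.21), from −0.80 to 1.06 with anti-IL-12p40 (0.18) and from −1.26 to 1.05 with PBS under IMQ (−0.15), against −1.91 to −0.87 in water controls (−0.92).

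The 10 genes, other than members, whose levels ran most like that mean were taken by Pearson's r. In skin, over 23 libraries and 13069 genes, they were Cyp51 (0.94), Nsdhl (0.91), Pmvk (0.90), Acat2 (0.89), Psma1 (0.86), Ampd2, Cpd, Gch1 and Nucb2 (0.84 each) and Prkar2a (0.83), beside a median of 0.05 over all genes. Of these, 4 are enzymes of the same pathway. In colon, over 26 libraries and 13455 genes, they were Aacs (0.96), Msmo1 and Cyp51 (0.93 each), Nsdhl (0.91), Hsd17b12 (0.87), Ldah (0.84), Arhgap1 (0.82), Acat2 (0.81) and Gm11545 and Slc35c1 (0.79 each), beside a median of 0.07. Of these, 4 are enzymes of the pathway, and Cyp51, Nsdhl and Acat2 are on both lists. By Spearman's rho 7 of the 10 skin genes and 7 of the 10 colon genes were again among the 10 highest, and with group means off 5 were in each tissue.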

How the data were processed

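Gene-level expected counts of 49 libraries were taken as the authors deposited them, in 1 table for skin and 1 for colon. The submitters' processing notes name RSEM and the mm10 build; their versions and the annotation are not given in the sources used here. Per the labels' protocols, poly(A) RNA was made into strand-specific libraries. These deposited estimated counts are not scaled to depth, and 16.9% of skin and 17.5% of colon values were not whole, because RSEM shares reads that match several loci; they were rounded. Genes were named from Entrez IDs (24375 of 24475 matched).

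Low counts were filtered (filterByExpr), library sizes scaled by TMM, and group means compared by edgeR 4.0.16's quasi-likelihood test in R 4.3.3, with the 4 groups of a tissue in 1 fit, or all 8 groups in 1 fit where tissues were compared, and Benjamini-Hochberg adjustment over all genes tested. SE is the log2 fold change divided by the root of F. Correlations used log2 CPM with a prior count of 2. Alternatives were DESeq2 1.42.0's size factors and its test, no filter, limma 3.58.1's voom with sample weights, only the 2 groups compared, each library left out, subsets of the IMQ PBS libraries, Spearman's rho and, chosen after seeing the data, a robust dispersion prior. The fits were tested on simulated data. Figures were drawn with matplotlib 3.10.9.

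The members and gene lists were chosen with earlier results of these data known. The genes named are the 8 members, the 10 most like them per tissue and, from the other lists, genes past the threshold (where more than 4 pass, the 4 with the lowest p). Exceptions named after their values were seen are Srebf1, Srebf2 and Insig1 under IMQ PBS, and Tm7sf2 between the tissues. Some genes of these lists are not reported here; they stayed in every fit, but not in the counts over lists or the ranking by likeness.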

Additional observations from a re-analysis of the deposited data

Results flagged for a closer look

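Over the 56 combinations of a member and a group of 4 to 10 libraries, 5 values stood far from the rest of their group by Dixon's test, which flags about 1 in 20 groups by chance. In IMQ PBS replicate 1, Mvd was at 100.39 CPM where the next library was at 76.1, Sqle at 429.372 CPM where the next was at 314, and Dhcr7 at 131.66 CPM where the next was at 94.8. In IMQ anti-IL-12p40 replicate 7, Fdps was at 359.821 CPM where the next library was at 259, and Fdft1 at 212.133 CPM where the next was at 171. The values come from 2 libraries, and the members of a library are not independent of each other. All 5 were the highest of their group.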

How the results depend on the processing

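Of 2608 member values under alternatives, 2517 kept their side of the threshold, 55 lost a call and 36 gained one. No value called in either fit changed sign; 174 uncalled values did, with log2 fold changes of at most 0.12 in size as reported and 0.13 under the alternative. Where a count of genes moved by over 1.5 times the cause was not tested, and the values were these. In skin, anti-IL-36R against PBS called 646 genes, 1079 by DESeq2, 2750 by voom, 105 with IMQ PBS replicates 1 to 3 and 52 with 4 to 6 (members 1, with 2 by DESeq2, 2 by voom and 0 with replicates 1 to 3). Anti-IL-12p40 against PBS called 1351, 2677 by voom, 436 with PBS replicates 1 to 3 (members 0 in place of 1) and 229 with 4 to 6. Anti-IL-36R against anti-IL-12p40 called 7, 24 by DESeq2 and 4 with only the 2 groups. Against water, IMQ with anti-IL-36R called 2017 and 1187 with only the 2 groups, and IMQ with anti-IL-12p40 called 737, 1287 by DESeq2 and 477 with only the 2 groups (members 0, 3 by DESeq2 and 1 by voom). In colon, DSS PBS against water called 5073 and 2941 with only the 2 groups (members 2, with 1 under no filter and 1 with only the 2 groups). Anti-IL-36R against PBS called 1039, 1580 by DESeq2, 453 by voom and 421 with only the 2 groups, and anti-IL-12p40 against PBS called 181, 365 by DESeq2, 0 by voom and 0 with only the 2 groups. Between the antibodies DESeq2 called 6 genes where edgeR called 0. Against water, DSS with anti-IL-36R called 1561 and 3972 by voom (members 1, with 0 under no filter, 2 by DESeq2, 5 by voom and 3 with only the 2 groups), and DSS with anti-IL-12p40 called 2712 and 5028 by voom (members 0, 3 by voom and 1 with only the 2 groups). The difference of anti-IL-12p40 effects between tissues called 314 genes, 483 by DESeq2 and 162 by voom. DESeq2's size factors and the robust prior moved no count by that much.

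With each library left out in turn, genes and members called ranged as follows: in skin, IMQ PBS against water 2902 to 5010 and 1 to 5, anti-IL-36R against PBS 301 to 1185 and 0 to 2, anti-IL-12p40 against PBS 751 to 1803 and 1 to 1, anti-IL-36R against anti-IL-12p40 3 to 8 and 0 to 0, anti-IL-36R against water 707 to 2604 and 1 to 6, and anti-IL-12p40 against water 124 to 1133 and 0 to 1. In colon they were, for DSS PBS against water, 3990 to 5508 and 0 to 3, anti-IL-36R against PBS 439 to 1772 and 0 to 1, anti-IL-12p40 against PBS 34 to 408 and 0 to 0, between the antibodies 0 to 0 for both, anti-IL-36R against water 981 to 1597 and 0 to 2, and anti-IL-12p40 against water 1995 to 2770 and 0 to 1. Between tissues they were 2489 to 4307 genes for disease, 354 to 1417 for anti-IL-36R and 133 to 462 for anti-IL-12p40, with 0 members in each, and 10214 to 10939 genes and 6 to 7 members for water controls. No paired analysis was possible because the sample numbers in the labels are not shared between groups. The 3 skin water libraries limit the precision of every comparison with them.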
